A study of Mus musculus with 12 samples.

Results

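Keratins are the intermediate filament proteins of epithelial cells, and each filament pairs a type I with a type II keratin. Single-layered epithelia, including the alveolar and airway lining of the lung, rely on the simple keratins *Krt7*, *Krt8*, *Krt18* and *Krt19*. Stratified squamous epithelia use other pairs, with *Krt5*, *Krt14* and *Krt15* in the basal layer, *Krt4* and *Krt13* in the upper layers of mucosal linings such as the oesophagus, *Krt1* and *Krt10* in cornifying layers, and *Krt6a*, *Krt6b*, *Krt16* and *Krt17* in stressed or regenerating epithelium. In the conducting airway, *Krt5* and *Krt15* are known from basal cells.

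The keratin genes described here were all 54 protein-coding genes of the count table whose symbol is Krt followed by a number and at most 1 letter, out of 52550 genes and 21950 protein-coding genes. By their textbook roles, 5 were simple keratins, 16 squamous keratins (3 basal, 4 stress, 4 mucosal and 5 cornifying), 8 other epithelial keratins, 9 root sheath keratins and 16 hair keratins. RNA was sequenced from 12 whole lungs of C57Bl/6J mice taken on postnatal day 5, with 3 libraries in each of 4 groups. WT (*Adm*+/+) and *Adm*+/- mice, which carry 1 intact copy of the adrenomedullin gene *Adm* in every cell, received intraperitoneal injections once daily for 3 days from postnatal day 3, and the lungs were frozen 6 h after the last injection. The injections held either PBS, the control vehicle, or LPS, a bacterial inflammatory stimulus from *Escherichia coli* of serotype O55:B5, at a dose of 6 mg/kg. The *Adm*+/- line came from a 129/SvEv background and had been crossed to C57BL/6J for 12 generations. The groups were WT PBS (libraries 3, 4 and 5), WT LPS (9, 10 and 11), *Adm*+/- PBS (6, 7 and 8) and *Adm*+/- LPS (1, 2 and 12), numbered as in the sample labels.

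Total counts ranged from 22382535 to 38062873 per library, and a gene at 0 counts could have reached between 0.0925 and 0.185 CPM (counts scaled to a common library size) at a floor of 3 counts. The targeted gene *Adm* was at 3.96 to 7.09 CPM in WT PBS and 2.87 to 4.58 in *Adm*+/- PBS libraries, and at 4.46 to 8.15 in WT LPS and 3.74 to 6.28 in *Adm*+/- LPS libraries, so both pairs of groups overlapped. Libraries WT PBS 5 and *Adm*+/- PBS 6 stood apart, where protein-coding genes took 77.8% and 80.1% of counts, and 84.3% to 87.6% in the other libraries. Summed levels of 10 type II pneumocyte genes, 13752 to 17473 CPM, and of 10 type I pneumocyte genes, 3502 to 4286 CPM, were high in all 12 libraries.

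The keratin genes lie in 2 clusters of the mouse genome (mm10): 27 on chromosome 11, chr11:99232761-100269871, holding type I genes, and 27 on chromosome 15, chr15:101347444-102032027, holding type II genes and the type I gene *Krt18*. For 36 of the 54 genes, RefSeq promoter sequence was at hand (build GRCm38.p6). The 250 bases before the start are shown for *Krt13* (chr11:100121567-100121816, minus strand, the outer of 2 starts, of which the other, with the window chr11:100120578-100120827, has no ATAAAA) and *Krt5* (chr15:101712906-101713155, minus strand), from the 2 clusters, which were high in the same WT LPS libraries, and for *Krt23* (chr11:99493121-99493370, minus strand), which fell in *Adm*+/- mice. Capitals mark ATAAAA.
Krt13: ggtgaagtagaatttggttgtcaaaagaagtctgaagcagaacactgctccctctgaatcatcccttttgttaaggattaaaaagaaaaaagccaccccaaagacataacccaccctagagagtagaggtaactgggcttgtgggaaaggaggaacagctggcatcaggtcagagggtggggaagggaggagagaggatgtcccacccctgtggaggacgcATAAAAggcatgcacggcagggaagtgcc
Krt5: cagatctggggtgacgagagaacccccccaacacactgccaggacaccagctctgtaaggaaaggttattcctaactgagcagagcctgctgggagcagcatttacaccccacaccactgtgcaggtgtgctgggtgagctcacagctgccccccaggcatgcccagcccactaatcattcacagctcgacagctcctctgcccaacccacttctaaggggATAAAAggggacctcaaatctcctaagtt
Krt23: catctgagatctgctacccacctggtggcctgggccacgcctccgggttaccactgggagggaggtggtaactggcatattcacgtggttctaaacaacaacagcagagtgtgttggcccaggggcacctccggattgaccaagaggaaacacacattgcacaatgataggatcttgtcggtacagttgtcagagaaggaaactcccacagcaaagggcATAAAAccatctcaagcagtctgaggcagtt
The letters ATAAAA were picked out after these sequences had been read. They occur on either strand of the 250 bases in 20 of the 36 keratin genes and in 16.97% of all 32851 windows. On the strand of the gene, starting 40 to 20 bases before the start, they occur in 14 of the 36 keratin genes and in 1.72% of all windows. A match is a match of letters and no evidence of a bound factor.

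Simple keratins made up most keratin RNA in 10 of the 12 libraries, and squamous keratins in the other 2, WT LPS 9 and WT LPS 11. Squamous keratins summed to 13.0, 6.94 and 17.1 CPM in the WT PBS libraries 3, 4 and 5, and to 3285, 34.9 and 1695 CPM in the WT LPS libraries 9, 10 and 11. In *Adm*+/- mice they summed to 10.47, 10.98 and 7.51 CPM in PBS libraries 6, 7 and 8, and to 48.1, 16.2 and 10.4 CPM in LPS libraries 1, 2 and 12. The 2 highest libraries were 68.3 and 35.2 times the next highest, *Adm*+/- LPS 1, and held 97.2% of all 153447 squamous keratin counts of the series. Library WT LPS 10, from the same group, was of the order of *Adm*+/- LPS 1.

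Simple keratins showed no such split. They summed to 417, 439 and 767 CPM in WT PBS, 643, 495 and 633 in WT LPS, 616, 414 and 396 in *Adm*+/- PBS, and 504, 428 and 467 in *Adm*+/- LPS, in the same order of libraries. The highest and lowest of the 12 differed 1.94-fold, against 473-fold for the squamous keratins. Within PBS the highest library of each genotype was the one that stood apart above, WT PBS 5 and *Adm*+/- PBS 6. The part of these libraries' RNA composition in that level was not tested.

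As a share of all keratin counts, squamous keratins took 81.8% in WT LPS 9 (95% Wilson interval 81.6% to 82.1%), 70.5% in WT LPS 11 (70.2% to 70.9%) and 6.15% in WT LPS 10 (5.76% to 6.56%). They took 1.42% to 8.19% in the other libraries, with the highest share in *Adm*+/- LPS 1 (7.77% to 8.63%). Intervals and floors cover counting error only. In bulk tissue, more cells of a type cannot be told apart from more RNA per cell.

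**Figure D1:**
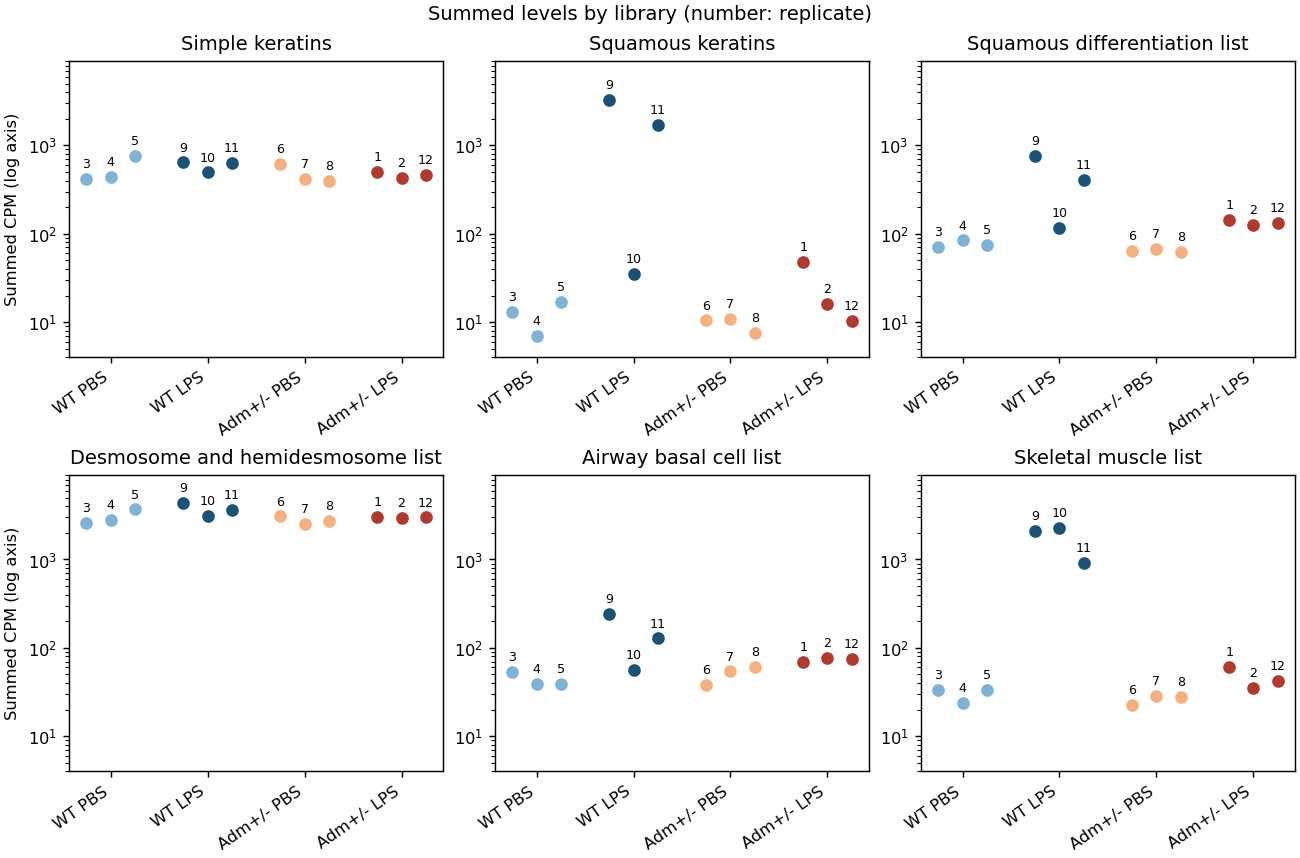
Summed CPM on a log axis for simple keratins, squamous keratins and 4 marker lists in each of the 12 libraries, with the library number above each point. Simple keratins stay between 396 and 767 CPM, squamous keratins reach 3285 and 1695 CPM in WT LPS 9 and 11, and the skeletal muscle list is high in all 3 WT LPS libraries.

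Of the 54 keratins, 17 passed the filter on low counts and were tested: all 5 simple keratins, 7 of 16 squamous keratins, 4 of 8 other epithelial keratins and 1 of 16 hair keratins. *Krt13*, *Krt6a* and *Krt20* passed only because of the WT LPS libraries. Of the 37 that did not pass, 8 had 0 counts in every library, 21 reached at most 10 counts, and 8 exceeded 10 counts in a library, which was WT LPS 9 or WT LPS 11 for all 8. A gene was called at a Benjamini-Hochberg adjusted p below 0.05 over all 15885 genes tested with edgeR and a log2 fold change above 0.5 in size.

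The first comparison asked how the keratins of the WT lung responded to LPS. Of the 17 tested, 6 rose and 0 fell, against 17.6% of all genes called (10.5% higher), and the 6 were squamous keratins: *Krt13*, *Krt4*, *Krt5*, *Krt6a*, *Krt14* and *Krt15*. Since *Krt13* and *Krt6a* were tested only because they were high in WT LPS, the count of 6 is a description, and nothing is read from it against the share of all genes. Leaving out the 3 keratins that passed in this way, 4 of 14 rose. The groups did not overlap for 4 of the 17, *Krt13*, *Krt4*, *Krt5* and *Krt6a*, against 36.2% of all genes. None of the 5 simple keratins was called.

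Among the mucosal keratins, *Krt4*, a type II keratin (chr15:101918535-101924735, minus strand), was at 0.854, 0.728 and 1.98 CPM in WT PBS and at 1382, 11.02 and 755 CPM in WT LPS 9, 10 and 11. All 3 LPS libraries lay above all 3 PBS libraries. The log2 fold change was 9.30 (edgeR adjusted p = 0.00269, standard error 1.61), and 8.38 without WT LPS 9.

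*Krt13*, the type I partner of *Krt4* (chr11:100117327-100121566, minus strand), had 4, 0 and 1 counts in the WT PBS libraries and 33318, 229 and 13612 counts in WT LPS 9, 10 and 11 (adjusted p = 0.00234 from edgeR). Library 10 was far below the other two and still well above PBS. Since the PBS group held 5 counts in all, the fitted fold change of *Krt13* depends on the prior count, and none is given.

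*Krt4* and *Krt13* had a count ratio of 1.35, 1.16 and 1.39 in the 3 WT LPS libraries, and of 1.48, 1.98 and 4.90 in *Adm*+/- LPS 1, 2 and 12, the last from 49 and 10 counts. *Krt78*, a further mucosal keratin that did not pass the filter, had 384 and 298 counts in WT LPS 9 and 11, 9 in WT LPS 10 and at most 8 in every other library. *Krt76*, a keratin of the palate and gingiva, had at most 1 count in any library.

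Among the basal keratins, *Krt5* (chr15:101707070-101712898, minus strand) had 2, 0 and 8 counts in WT PBS and 5313, 20 and 1743 counts in WT LPS 9, 10 and 11 (adjusted p = 0.00492 from edgeR). In CPM, library 10 was at 0.832 and the highest PBS library at 0.494, so the groups were separated only narrowly. The pooled ratio of LPS to PBS was 542, with an exact 95% counting interval of 295 to 1131. It was 224 without WT LPS 9 and 2010 without WT PBS 5, so single libraries moved it more than counting error.

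*Krt14*, the type I partner of *Krt5*, was at 0.155, 0.194 and 1.54 CPM in WT PBS and 67.8, 1.16 and 20.3 CPM in WT LPS. Here library 10 lay within the PBS range. The log2 fold change was 5.71 (edgeR adjusted p = 0.00747, standard error 1.21), 4.21 without WT LPS 9 and 7.39 without WT PBS 5.

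*Krt15*, a type I keratin of basal cells, was detected in all control lungs, at 7.26, 2.48 and 9.45 CPM in WT PBS. It reached 450, 7.24 and 230 CPM in WT LPS 9, 10 and 11, and library 10 again lay within the PBS range. The log2 fold change was 5.17 (edgeR adjusted p = 0.00777, standard error 1.103), and 4.21 without WT LPS 9.

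Among the stress keratins, *Krt6a* had 1, 0 and 0 counts in WT PBS and 4950, 38 and 1272 counts in WT LPS 9, 10 and 11 (adjusted p = 0.00565 from edgeR). The pooled ratio was 4798, with a counting interval of 861 to 189529, set by the single PBS count, and it was 1667 without WT LPS 9. *Krt6b*, its close copy, had 0 counts in all PBS libraries of both genotypes and 525, 0 and 113 counts in WT LPS, at least 163-fold higher over the group at a floor of 3 counts, and at least 47.9-fold without WT LPS 9. Of all 100-base windows of *Krt6a* transcripts 30.6% also occur in other genes, chiefly *Krt6b*, so the split of reads between the pair is uncertain.

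*Krt17* had 321, 1 and 171 counts in WT LPS 9, 10 and 11 and at most 8 elsewhere. *Krt16*, its relative in stressed epidermis, had 54, 2 and 4 counts in WT LPS and at most 1 elsewhere. Neither passed the filter. Windows shared with other genes were 24.3% for *Krt16* and 14.0% for *Krt31*. The hair keratin *Krt31* had 33, 2 and 28 counts in WT LPS and 0 in the other 9 libraries, and the root sheath keratin *Krt75* had 22 counts in WT LPS 9 and at most 2 elsewhere.

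In the cornifying pair, *Krt10*, a type I keratin of suprabasal epidermis, was at 3.88, 3.35 and 2.59 CPM in WT PBS and 3.11, 2.91 and 3.19 CPM in WT LPS, and the groups overlapped. Its log2 difference was -0.10, with a 95% interval from -0.54 to 0.34 (adjusted p = 0.728 from edgeR). *Krt1*, its type II partner, did not pass the filter. It was highest in WT LPS 11 and 9, with 15 and 7 counts, against 3 in WT LPS 10 and 1 to 5 in the other libraries. In CPM *Krt1* was at 0.597 in WT LPS 11 and 0.216 in WT LPS 9, the latter close to 0.185 in WT PBS 5. *Krt83*, a hair keratin, had at most 11 counts, in WT LPS 11. It had 8 and 6 in WT LPS 9 and 10, and 10 and 7 in *Adm*+/- LPS 12 and 1.

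**Figure D2:**
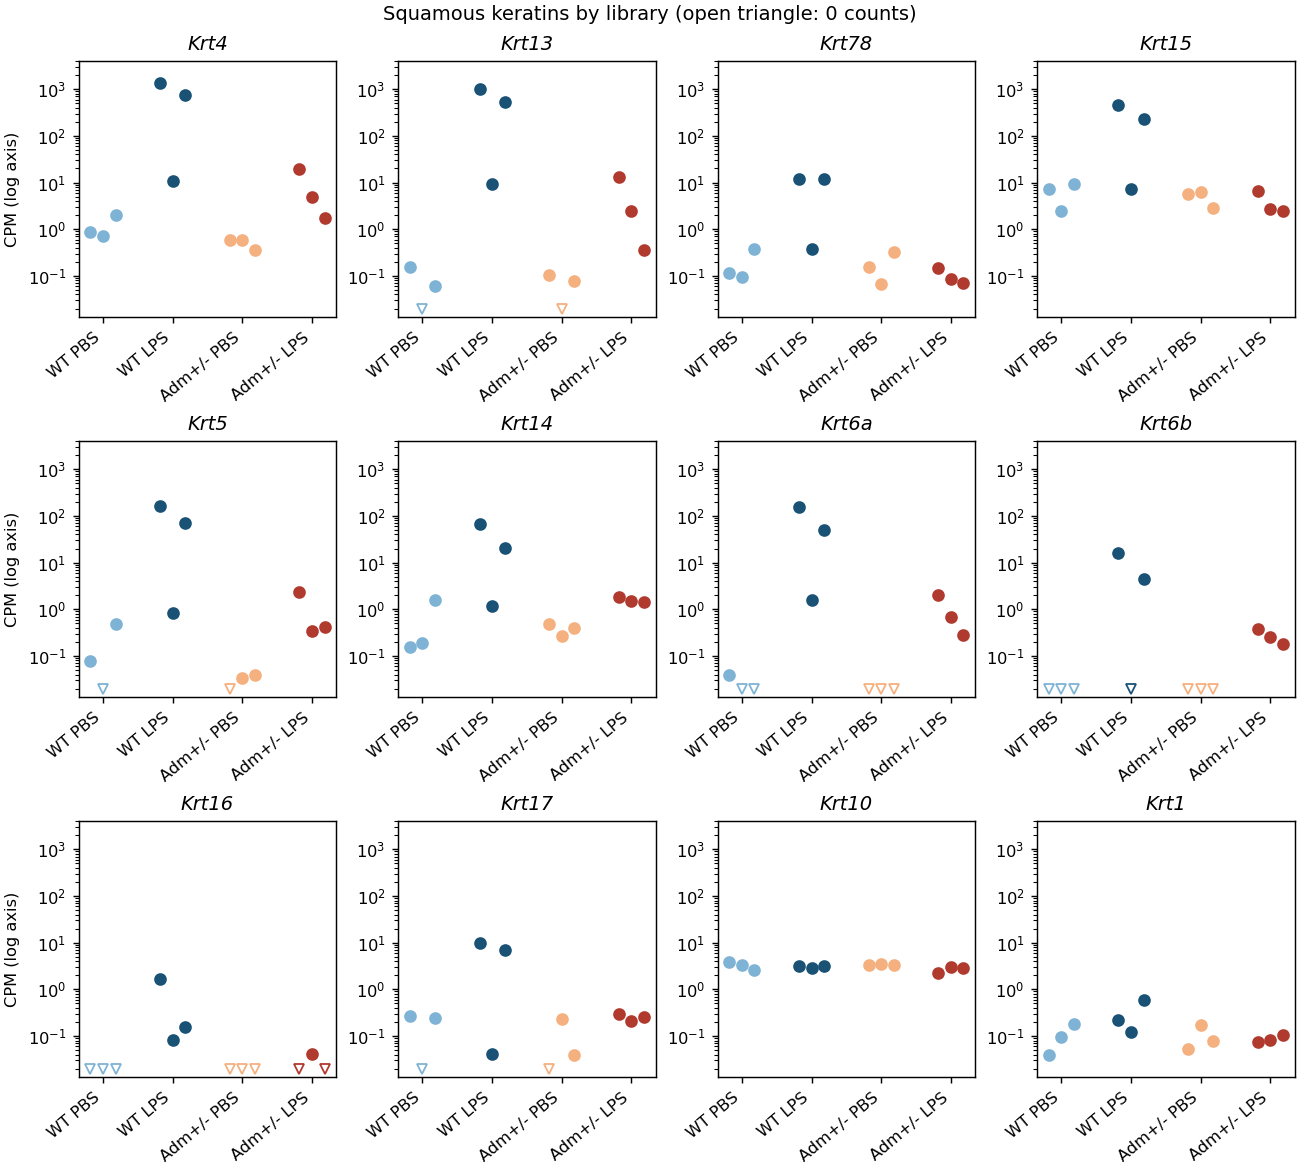
CPM on a log axis of 12 squamous keratins in each library, with 3 points per group in the order of the library numbers given above and open triangles for 0 counts. In 10 panels WT LPS 9 is the highest library or within 0.1 CPM of it, with WT LPS 10 far below WT LPS 9, while *Krt10* stays between 2.21 and 3.88 CPM in all 12 libraries.

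Leaving out 1 of the 12 libraries at a time kept all 6 WT calls in each of the 12 fits. Leaving out WT LPS 9 and 11 together, an alternative added after the values had been seen, made WT LPS 10 the only library of its group, assumed to vary like the other groups. The edgeR fit then called 1 of 17 keratins, *Krt13*, with an adjusted p of 0.0424, which rests on 229 counts in 1 library and 5 in WT PBS, so it is no replicated result. *Krt4* had an adjusted p of 0.0986. In that fit *Krt15* differed by 0.18 and *Krt14* by 1.01 on the log2 scale. Under limma-voom 0 of the 17 were called (3 at an unadjusted p below 0.05).

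The make-up of the squamous keratin RNA differed between the treatments as well as its amount. In the 6 PBS libraries *Krt15* and *Krt10* together took 70.4% to 87.1% of squamous keratin counts, and *Krt4* and *Krt13* together 5.23% to 11.9%. In WT LPS 9, 10 and 11, *Krt4* and *Krt13* took 73.3%, 58.8% and 76.5%. In *Adm*+/- LPS 1, 2 and 12 they took 67.1%, 44.7% and 20.3%.

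Library WT LPS 10 thus resembled the other WT LPS libraries in make-up more than in amount, but this make-up was not particular to WT LPS. The *Krt4* share of squamous counts in WT LPS 10 was 31.5% (Wilson interval 28.5% to 34.8%), against 42.1% and 44.5% in WT LPS 9 and 11 and 4.76% to 11.6% in PBS. The share was similar in *Adm*+/- LPS 2, at 29.7% (interval 25.4% to 34.5%). It was higher in *Adm*+/- LPS 1 (interval 37.4% to 42.7%) and lower in *Adm*+/- LPS 12, at 16.8%. The shares in PBS libraries rest on 143 to 335 squamous keratin counts each.

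**Figure D3:**
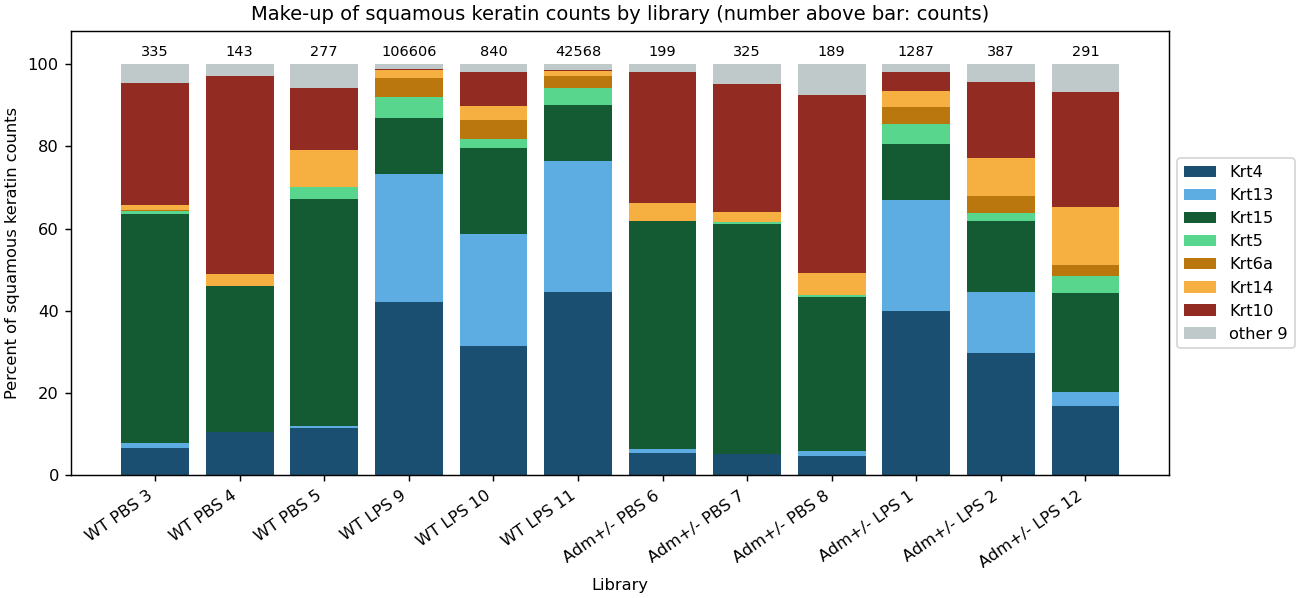
Percent of squamous keratin counts taken by each of 7 genes and by the other 9 together in each library, with the number of squamous keratin counts above each bar. *Krt15* and *Krt10* fill most of the PBS bars, and *Krt4* and *Krt13* most of the WT LPS bars and of *Adm*+/- LPS 1.

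Compared per kilobase of exon, the simple keratins *Krt19*, *Krt8*, *Krt18* and *Krt7* held the first 4 places in WT PBS, *Adm*+/- PBS and *Adm*+/- LPS. The length joined all annotated exons of a gene, 7049 bases for *Krt7* and 6393 for *Krt80* against 1437 for *Krt18*. The order therefore depends on it, and in plain CPM *Krt7* was the highest keratin of every WT PBS library. In WT PBS the levels per kilobase of these 4 were 70.5 ± 31.7, 42.7 ± 14.5, 40.2 ± 14.0 and 38.1 ± 12.9 CPM (SD, n = 3), so the spreads of all 4 overlapped. The next, *Krt80*, followed at 5.54 ± 1.16 CPM per kilobase. In WT LPS the first 3 places went to *Krt4* at 336 ± 322, *Krt13* at 289 ± 279 and *Krt15* at 130 ± 125 CPM per kilobase, with spreads nearly as large as the means because library 10 was at 5.17, 5.23 and 4.09.

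The simple pair *Krt8* and *Krt18*, which form the first keratin filaments of embryonic epithelium, moved little. *Krt8* was at 71.7, 62.9 and 116 CPM in WT PBS and 73.4, 77.1 and 85.9 CPM in WT LPS, a log2 difference of -0.08 (95% interval -0.53 to 0.36). *Krt18* was at 43.8, 48.6 and 80.8 CPM in WT PBS and 45.0, 53.9 and 56.1 CPM in WT LPS, a log2 difference of -0.16 (interval -0.68 to 0.36). Groups overlapped for both genes, and the ratio of *Krt8* to *Krt18* counts stayed between 1.30 and 1.76 in all 12 libraries. Of the 100-base windows of *Krt8*, 16.9% also occur in its pseudogene *Krt8-ps*. Both signs turned when WT PBS 5 was left out, to 0.22 for *Krt8* and 0.16 for *Krt18*.

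*Krt7*, a type II keratin of ducts and simple lung epithelium, was at 200, 234 and 371 CPM in WT PBS and 306, 250 and 297 CPM in WT LPS. Its log2 difference was 0.08 (95% interval -0.46 to 0.63). *Krt19*, the smallest keratin, which lacks a tail domain, was at 101, 92.8 and 198 CPM in WT PBS and 217, 114 and 193 CPM in WT LPS, a log2 difference of 0.42 (interval -0.30 to 1.14).

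*Krt20*, a keratin of gut and bladder lining, had at most 34 counts and was highest in WT LPS 9 and 11, at 1.05 and 0.916 CPM against 0.250 in WT LPS 10 and 0.291 to 0.556 in WT PBS. The highest *Krt19* levels of the series were likewise in WT LPS 9 and WT PBS 5. *Krt19* passed in WT mice without WT PBS 5 (0.85, edgeR adjusted p = 0.0499), and *Krt20* without WT LPS 10 (1.32, edgeR adjusted p = 0.0319).

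**Figure D4:**
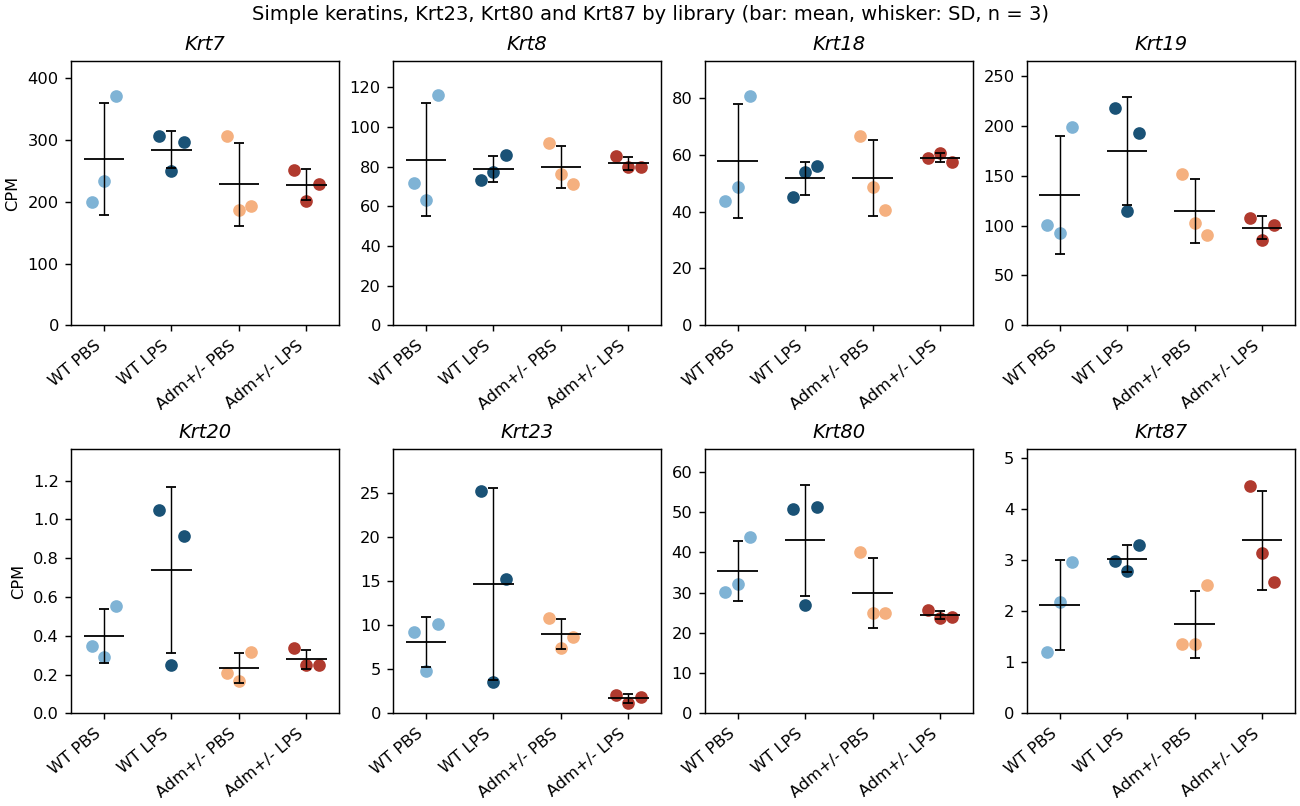
CPM of the 5 simple keratins and of *Krt23*, *Krt80* and *Krt87* in each library, on linear axes from 0, with the group mean as a bar and the SD as a whisker (n = 3). *Krt8* overlaps in all 4 groups, *Krt18* in all pairs of groups but WT LPS and *Adm*+/- LPS, and *Krt23* is lowest in the 3 *Adm*+/- LPS libraries, at 1.17 to 2.06 CPM.

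The second comparison asked the same of *Adm*+/- mice. Of the 17 tested keratins, 1 was called, *Krt23*, which fell, against 25% of all genes called (12.2% lower). *Krt23* is a type I epithelial keratin (chr11:99477974-99493137, minus strand). It was at 10.8, 7.47 and 8.71 CPM in *Adm*+/- PBS and 2.06, 1.17 and 1.85 CPM in *Adm*+/- LPS, so the groups were well apart. It was 5.26-fold lower, a log2 fold change of -2.39 (edgeR adjusted p = 0.00892, standard error 0.57), and was called in all 12 fits without 1 library and under all 11 other alternatives.

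In WT mice *Krt23* did not move one way. It was at 9.28, 4.85 and 10.2 CPM in WT PBS and at 25.2, 3.53 and 15.3 CPM in WT LPS 9, 10 and 11. Library 10 lay below all PBS libraries and the other two above them. The log2 difference of 0.86 was not called (edgeR adjusted p = 0.252, standard error 0.52), was called without WT LPS 10 (1.32, adjusted p = 0.0196 from edgeR), and was -1.20 with WT LPS 10 as the only WT LPS library, a value with no replicate of its own.

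No squamous keratin was called in *Adm*+/- mice. All the same, *Krt4* was at 0.579, 0.574 and 0.358 CPM in *Adm*+/- PBS and 19.3, 4.82 and 1.75 CPM in *Adm*+/- LPS 1, 2 and 12, with no overlap. Its log2 difference was 4.09 (edgeR adjusted p = 0.0681, standard error 1.57), and 2.68 without *Adm*+/- LPS 1 (edgeR adjusted p = 0.272). *Krt13* had 2, 0 and 2 counts in *Adm*+/- PBS and 348, 58 and 10 in *Adm*+/- LPS (adjusted p = 0.0611 from edgeR).

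*Krt5* had 0, 1 and 1 counts in *Adm*+/- PBS and 64, 8 and 12 in *Adm*+/- LPS, a pooled ratio of 39.4 with a counting interval of 10.6 to 330 (adjusted p = 0.182 from edgeR), and of 14.2 without *Adm*+/- LPS 1. *Krt6a* had 0 counts in *Adm*+/- PBS and 53, 16 and 8 in *Adm*+/- LPS, at least 24.1-fold higher over the group (adjusted p = 0.150 from edgeR), and at least 11.4-fold without *Adm*+/- LPS 1. *Krt14* was at 0.473, 0.270 and 0.398 CPM in *Adm*+/- PBS and 1.87, 1.51 and 1.46 CPM in *Adm*+/- LPS, a log2 difference of 2.11 (edgeR adjusted p = 0.238, standard error 1.28).

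These 5 squamous keratins were higher in every *Adm*+/- LPS library than in any *Adm*+/- PBS library, while *Krt15* was not, at 5.79, 6.15 and 2.82 CPM in PBS and 6.51, 2.77 and 2.49 CPM in LPS. Over the 17 keratins, 8 had groups that did not overlap, against 53.7% of all genes, and 4 had an unadjusted p below 0.05, against 41.8% of all genes. The fit shared 1 spread estimate with the WT LPS libraries. Without WT LPS 9 and 11 in the fit, *Krt13*, *Krt4*, *Krt5*, *Krt6a* and *Krt14* were called in *Adm*+/- mice, with adjusted p of 0.0106, 0.00734, 0.0215, 0.00915 and 0.0474 from edgeR, and DESeq2 called the first 4 of these 5 with all libraries. With the *Adm*+/- libraries alone, the filter kept 13 keratins, and edgeR called *Krt4* and *Krt14* of the 5. Some of the 5 may not have been tested there, such as *Krt13* and *Krt6a*, which had passed only because of WT LPS. Limma-voom with all libraries called none of the 5. Of all 15885 genes, DESeq2 called 4288 in this comparison.

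Simple keratins in *Adm*+/- mice differed by -0.23 to 0.27 on the log2 scale after LPS, and none was called. The widest 95% interval among the 4 abundant ones, that of *Krt19*, ran from -0.94 to 0.49. *Krt10* was at 3.31, 3.41 and 3.26 CPM in PBS and 2.21, 2.97 and 2.89 CPM in LPS, lower in every LPS library but not called (-0.31, adjusted p = 0.243 from edgeR).

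The remaining tested members were not called in either genotype. *Krt80*, a type II keratin of many epithelia, differed by 0.28 in WT and -0.29 in *Adm*+/- mice on the log2 scale, and *Krt79*, a keratin of the sebaceous duct, by -0.32 and 0.31. *Krt222*, a keratin-related gene, differed by -0.37 and 0.19. *Krt87*, a hair keratin, was at 1.37, 1.35 and 2.50 CPM in *Adm*+/- PBS and 4.45, 3.14 and 2.57 CPM in *Adm*+/- LPS, a difference of 0.95 (adjusted p = 0.0556 from edgeR), which limma-voom and DESeq2 called. Of its 100-base windows 10.97% are shared with other genes.

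**Figure D5:**
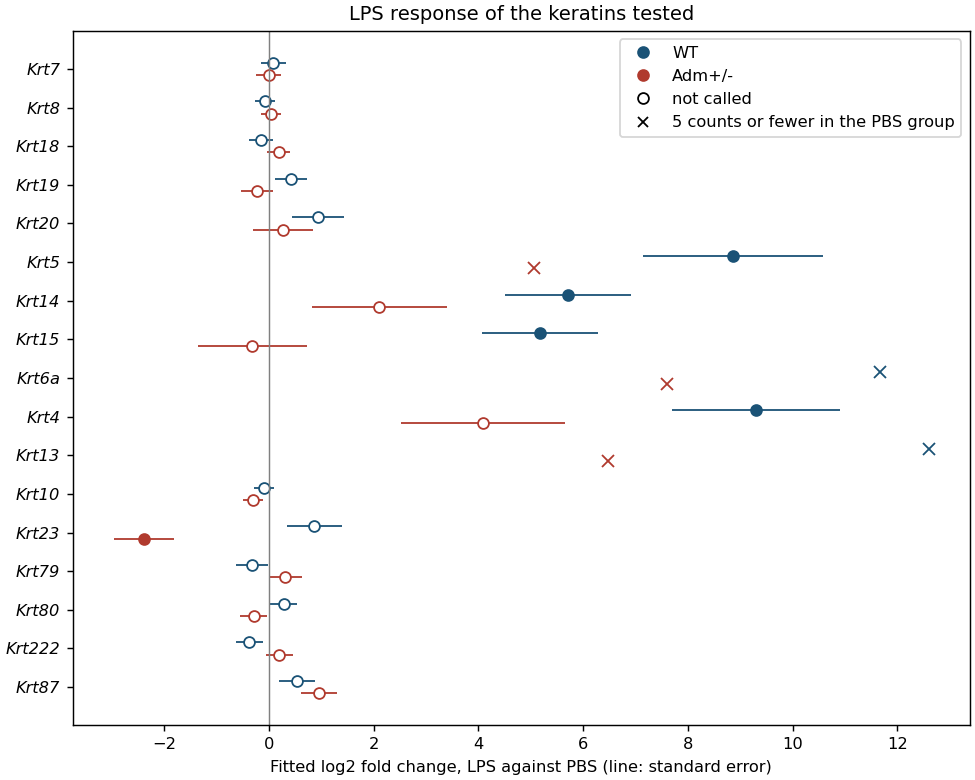
Fitted log2 fold changes after LPS (x axis) in WT and *Adm*+/- mice for the 17 keratins tested, with standard errors as lines, filled circles for called, open circles for not called, and crosses for genes with 5 counts or fewer in the PBS group, which have no meaningful error (of these *Krt13* and *Krt6a* in WT were called). Squamous keratins other than *Krt10* extend to the right in WT mice, and *Krt23* lies at -2.39 in *Adm*+/- mice.

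The third comparison, whether the LPS response itself differed between genotypes, called 0 of 17 keratins with edgeR, against 0.145% of all genes. At an unadjusted p below 0.05 it held 2 keratins, against 7.85% of all genes: *Krt23*, with a difference of -3.26 (edgeR adjusted p = 0.233, standard error 0.78), and *Krt15*, with -5.50 (edgeR adjusted p = 0.307, standard error 1.47). Over the fits without 1 library, the difference ran from -3.72 to -2.60 for *Krt23* and from -6.07 to -4.53 for *Krt15*. DESeq2 called both, limma-voom called 0 of 17, and without WT LPS 10 the edgeR fit called *Krt15*, *Krt23* and *Krt78*. Since *Krt13*, *Krt5* and *Krt6a* had 5 counts or fewer in at least 1 PBS group, their fitted differences between responses carry no usable size.

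Between *Adm*+/- and WT lungs given PBS, no keratin was called. In PBS, edgeR, DESeq2 and limma-voom called 0 of 17, and 0 of 17 had an unadjusted p below 0.05 with edgeR, where 344 of all genes (2.17%) did. The groups did not overlap for 2 of 17, *Krt4* and *Krt79*, both lower in *Adm*+/- mice, against 4.99% of all genes. Of the 17 estimates 15 were below 0 in *Adm*+/- mice, and those of the simple keratins ran from -0.74 to -0.07. The median over all tested genes was -0.008.

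After LPS, 5 keratins were lower in *Adm*+/- than in WT mice and 0 higher, against 2.05% of all genes called (1.72% lower and 0.327% higher). They were *Krt23* (-3.11, adjusted p = 0.0202 from edgeR), *Krt15* (-5.86, adjusted p = 0.0245), *Krt4* (-6.38, adjusted p = 0.0363), *Krt13* (-6.64, adjusted p = 0.0390) and *Krt5* (-6.20, adjusted p = 0.0419). *Krt6a* and *Krt14* were at -6.12 and -4.20, with adjusted p of 0.0535 and 0.0654 from edgeR. Without 1 library, these 2 values ran from -7.18 to -4.72 and from -4.77 to -2.72. Of the 5 called, only *Krt15* and *Krt23* had groups that did not overlap. Over the 17, 5 did not overlap, against 24.6% of all genes, and *Krt18*, *Krt19* and *Krt80* were the others. At an unadjusted p below 0.05 were 10 of 17, against 14.3%. *Krt13*, *Krt6a* and *Krt20*, tested only through WT LPS, are among these 10, and *Krt13* among the 5 called, so nothing is read from either count against the share of all genes. Without the 3, 4 of 14 were called.

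The sizes of these differences moved with the 2 high libraries. Without WT LPS 9 and 11, where library 10 alone stood for WT LPS and was assumed to vary like the other groups, *Krt4* differed by -0.36 and *Krt13* by -0.85 on the log2 scale. *Krt5* then stood at 0.34 and *Krt14* at 0.47, the opposite sign. That fit called 0 of 17, which with 1 library in the group says little. Leaving out WT LPS 11, *Adm*+/- LPS 1, 2 or 12 also gave 0, leaving out WT LPS 9 gave 2 and leaving out WT LPS 10 gave 13. Over the fits without 1 library, the log2 difference ran from -7.78 to -5.46 for *Krt4*, -8.60 to -5.70 for *Krt13*, -7.65 to -5.03 for *Krt5*, -6.44 to -4.91 for *Krt15* and -3.57 to -2.46 for *Krt23*. When only the 6 LPS libraries were fitted, 0 were called (10 at an unadjusted p below 0.05), and limma-voom called 0 of 17 (7 at an unadjusted p below 0.05). The comparison uses the same WT LPS libraries as the first and is not independent of it.

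Other genes of the squamous program had their highest summed levels in the same libraries as the squamous keratins, WT LPS 9 and 11. Of 29 squamous differentiation genes in the table, such as those of the cornified envelope and its crosslinking enzymes, 17 were tested, and in WT mice 14 rose and 0 fell after LPS, against 10.5% of all genes called higher. Of these, *Cnfn*, *Csta1* and *Tmprss11b* were tested only through WT LPS, and without them 11 of 14 rose, with a median log2 fold change of 1.92 against 0.01 for all genes. The list was chosen with results of these data known, so these counts are a description and no support. The genes that rose included *Cnfn*, which encodes cornifelin (7.84, adjusted p = 0.000603 from edgeR), *Tgm3*, a transglutaminase (6.77, adjusted p = 0.00496), *Csta1*, a cystatin (adjusted p = 0.00376, with too few PBS counts for a fold), and *Calml3*, a calmodulin-like protein of squamous cells (4.88, adjusted p = 0.00704). The summed level of the list was 756, 116 and 408 CPM in WT LPS 9, 10 and 11, 70.6 to 83.9 in WT PBS and 61.8 to 66.9 in *Adm*+/- PBS.

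In *Adm*+/- LPS the same list was at 126 to 144 CPM, above WT LPS 10, and 2 of its 17 tested genes rose, against 12.8% of all genes. The groups did not overlap for 8 of the 17, against 53.7% of all genes. The 2 that rose were *Tgm1*, the main cornified envelope transglutaminase (3.13, adjusted p = 0.000369 from edgeR), and *Anxa8*, an annexin (0.995, adjusted p = 0.00621). Squamous keratins did not follow the order of the list here, at 10.4 CPM in *Adm*+/- LPS 12, below the 34.9 CPM of WT LPS 10.

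Keratin filaments anchor to desmosomes between cells and to hemidesmosomes at the basement membrane. Of 20 such genes 16 were tested, and 8 rose and 0 fell in WT mice, against 10.5% of all genes higher and 7.09% lower. *Dsg3* and *Pkp1* were tested only through WT LPS, and without them 6 of 14 rose, again in a list chosen with results known. *Dsg3*, the desmoglein of stratified epithelium (adjusted p = 0.00801 from edgeR), and *Pkp1*, its plakophilin (adjusted p = 0.00304), both near 0 in PBS, rose with *Dsc2* (5.03), *Perp* (2.58), *Col17a1* (2.67), *Ppl* (1.90), *Dsp* (1.22) and *Dsg2* (0.60). In *Adm*+/- mice *Dsg2* rose (0.59) and *Jup*, plakoglobin, fell (-0.63), 2 of 16 called against 25% of all genes.

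Of 7 airway basal cell genes 6 were tested, and 4 rose in WT mice, against 10.5% of all genes, among them *Trp63*, the transcription factor that defines basal cells (5.57, adjusted p = 0.00338 from edgeR). *Trp63* was tested only through WT LPS, and without it 3 of 5 rose. In *Adm*+/- mice 2 rose, *Aqp3* (5.17) and *Ngfr* (2.55), and *Snai2* fell (-1.14), against 12.8% of all genes higher and 12.2% lower. The summed level of this list was 243 and 128 CPM in WT LPS 9 and 11, 56.2 in WT LPS 10 and 38.8 to 53.8 in WT PBS. In *Adm*+/- mice it was 37.9 to 60.4 CPM in PBS and 69.9 to 77.1 in LPS, with no overlap.

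Markers of other tissues were read in the same libraries. Of 14 tested skeletal muscle genes 14 rose in WT mice, against 10.5% of all genes (11 of 11 without the 3 tested only through WT LPS), and their summed level was 2091, 2293 and 918 CPM in WT LPS 9, 10 and 11 against 22.6 to 61.2 CPM in the other 9 libraries. Muscle RNA was thus highest in WT LPS 10, the library with the fewest squamous keratins of its group. A part of non-lung tissue in the squamous keratin levels was not tested.

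The summed thymus list (5 of 10 genes at 10 counts or fewer everywhere) was at 15.3 to 25.7 CPM in all libraries, with 0 of 5 tested genes called in WT mice and 1 lower in *Adm*+/- mice. Of all genes 17.6% were called in WT and 25% in *Adm*+/- mice, which holds for the next lists too. The thyroid list was at 14.6 and 9.76 CPM in WT LPS 9 and 11 and 4.26 to 6.81 elsewhere, with 0 of 4 tested genes called in WT and 1 higher in *Adm*+/- mice. Most of the rise in these 2 libraries was *Foxe1*, a transcription factor also known from foregut and skin epithelium, named after its values were seen. It was at 8.57, 0.0832 and 4.50 CPM in WT LPS 9, 10 and 11 and at most 0.0713 elsewhere, while thyroglobulin, *Tg*, was at 1.05 to 2.91 CPM in all 12 libraries. The cartilage list was at 9.80 to 175 CPM, highest in WT PBS 5, with 0 of 7 called in either genotype. Their part in the squamous keratin levels was not tested.

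The lists of lung epithelial cells are set beside the same shares of 17.6% in WT and 25% in *Adm*+/- mice. The 10 pan-epithelial genes summed to 722 to 745 CPM in WT PBS and 736 to 814 in WT LPS, which overlapped, and to 657 to 721 CPM in *Adm*+/- PBS and 770 to 792 in *Adm*+/- LPS, which did not, with 1 higher and 1 lower in WT mice and 2 higher in *Adm*+/- mice. Of 10 type II pneumocyte genes 1 rose in WT mice, and 3 rose and 2 fell in *Adm*+/- mice. Of 10 type I pneumocyte genes 1 rose and 1 fell in WT mice, and 2 rose and 1 fell in *Adm*+/- mice. Their summed level was 4097 to 4286 CPM in WT PBS and 3502 to 3952 in WT LPS, lower with no overlap, and 3746 to 4209 CPM in *Adm*+/- PBS and 3666 to 3782 in *Adm*+/- LPS, which overlapped.

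Of 10 club and ciliated cell genes 1 rose in WT mice, and 1 rose and 1 fell in *Adm*+/- mice. Their summed level was 1399 to 2375 CPM in WT PBS, 2473 to 2820 in WT LPS, 1298 to 2143 in *Adm*+/- PBS and 2557 to 2961 in *Adm*+/- LPS, with no overlap between PBS and LPS in either genotype. The 10 genes of transitional alveolar cells, a state of injured alveoli in which *Krt8* is a usual marker, gave 5 higher and 2 lower in WT mice and 6 higher and 1 lower in *Adm*+/- mice, while *Krt8* itself was not called in either. Of 8 mesothelial genes 3 rose in WT and 2 in *Adm*+/- mice. Their summed level was 402 and 358 CPM in WT LPS 9 and 11 against 255 in WT LPS 10 and 183 to 248 in WT PBS. It was 164 to 214 CPM in *Adm*+/- PBS and 208 to 289 in *Adm*+/- LPS.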

How the data were processed

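Per the paper's methods and the processing notes, the authors trimmed reads with Trim Galore, aligned them to mm10 with HISAT2 and deposited raw gene counts from featureCounts. The strand setting and Gencode release are not given in the sources used here, so reads of *Krt5*, *Krt6a*, *Krt6b*, *Krt7*, *Krt8*, *Krt10*, *Krt75*, *Krt76* and *Krt80* cannot be told apart from those of antisense genes that overlap their exons. All 12 libraries were used as labelled, and p-values measure the spread between the 3 libraries of a group, or, where a fit left a group with 1 library, the spread of the other groups. Of the 12 pairs of libraries within a group, 0 were identical, and chi-square per degree of freedom was at least 16.0.

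Of the protein-coding genes, filterByExpr kept 15885 across the 4 groups. After TMM scaling they entered 1 fit with 1 coefficient per group and 8 residual degrees of freedom, using edgeR 4.0.16 (quasi-likelihood F-test) in R 4.3.3. The code was tested on simulated data. DESeq2 1.42.0 and limma-voom (limma 3.58.1) were alternatives. CPM used TMM-scaled library sizes of the tested genes, and exon lengths came from Gencode M21, which held all 54 keratins. The members, the classes and the 13 marker lists were chosen with earlier results of these data known. Every tested keratin is named, and of the others those over 10 counts in a library. *Krt76*, below that, was named after its values were seen.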

Additional observations from a re-analysis of the deposited data

How the results depend on the processing

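The 6 calls in WT mice became 0 under limma-voom, 10 when every gene with a count was tested (46 keratins), 4 when only the WT libraries were fitted (*Krt14* and *Krt15* lost theirs) and 1 without WT LPS 9 and 11, and 6 to 12 without 1 library. The 1 call in *Adm*+/- mice became 6 under DESeq2, 2 under limma-voom, 3 with every gene with a count, 4 when only the libraries compared were fitted, 6 without WT LPS 9 and 11, and 1 to 6 without 1 library. The 0 calls for the difference between responses became 2 under DESeq2, and 0 to 3 without 1 library. The 5 calls between genotypes in LPS became 8 under DESeq2, 0 under limma-voom, 2 under edgeR's glmTreat, 0 with only the libraries compared and 0 without WT LPS 9 and 11, and 0 to 13 without 1 library. Most fits without 1 library tested 21 keratins, since the filter follows the smallest group. The fit with the *Adm*+/- libraries alone tested 13. In PBS, 0 were called throughout.

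Signs of values that were not called, or whose call was lost, also turned. In WT mice without WT LPS 9 and 11 these were *Krt19* (-0.20), *Krt20* (-0.63), *Krt23* (-1.20), *Krt7* (-0.10), *Krt79* (0.017) and *Krt80* (-0.39), and without the 2 PBS libraries that stood apart *Krt18* (0.16) and *Krt8* (0.22). In *Adm*+/- mice *Krt7* was 0.0015 with RLE size factors, 0.0013 with DESeq2, 0.029 with limma-voom and 0.26 without those PBS libraries, where *Krt19* was 0.022. Between genotypes in LPS without WT LPS 9 and 11, *Krt14* (0.47), *Krt20* (0.16) and *Krt5* (0.34) turned. Without 1 library, WT values ran from -0.24 to 0.041 for *Krt10*, -0.33 to 0.16 for *Krt18*, -0.091 to 0.39 for *Krt7* and -0.25 to 0.22 for *Krt8*, and *Adm*+/- values from -0.37 to 0.013 for *Krt19*, -0.14 to 0.25 for *Krt7* and -0.042 to 0.14 for *Krt8*. With plain library totals the simple keratins of *Adm*+/- LPS averaged 393 CPM in place of 466. The cause of these changes was not tested. Of 1117 single-gene values recomputed, 986 kept direction and side of the threshold, 64 lost it, 41 gained it and 26 changed sign. No paired analysis was run, because the sample labels give no litter or other link between animals of different groups.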
